A study of Mus musculus with 42 samples.

Results

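Chemokines and chemokine receptors were followed in whole left lungs from 42 animals of the mouse strain 129S2 K-rasLA1, taken 70 days after heavy-ion exposure or no exposure. A gene belonged to the family if its symbol in the array annotation was Ccl, Cxcl, Ccr, Cxcr, Cx3cl, Cx3cr, Xcl or Xcr followed by a number alone. This rule gave 50 genes (33 ligands and 17 receptors) of the 19057 genes named on the array, and it used no measured value. The 50 genes had 73 probes, and a gene with several was represented by the probe of highest mean signal. Of the 50 members, 28 were detected on enough arrays to be tested (21 ligands and 7 receptors).

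The fractionated group had received 0.2 Gy of 56Fe particles on each of 5 occasions (14 mice, 7 male and 7 female). The acute group had received 1.0 Gy in 1 exposure (15 mice, 8 male and 7 female), so that the total dose was the same. The control group was left unirradiated (13 mice, 7 male and 6 female). All mice, controls included, carried the K-rasLA1 allele, a latent allele that becomes active by spontaneous recombination in scattered cells and gives rise to lung tumours, and the labels describe it as G12D mutant K-ras. The particles had 1.0 GeV per nucleon. Although 14 arrays carry the fractionated label, the series' own description of its design gives 13 such mice. No group without the K-ras allele was included, and each lobe mixes all cell types of the lung with blood and any tumour it held.

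Chemokines are small secreted proteins that bind receptors with 7 membrane-spanning helices on leukocytes and direct where those cells move. Homeostatic members are made steadily by stroma, endothelium or epithelium and place lymphocytes in tissue, whereas inflammatory members are switched on in macrophages, epithelium and other cells and draw in neutrophils, monocytes or T cells. In the lung, alveolar macrophages and the airway and alveolar epithelium are known sources of the inflammatory kind. The comparison of the groups asks whether the transcripts of this system still differed at this late time, and whether a divided and a single dose differed.

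Each lung was measured on 1 array, with 16264 to 18289 probes detected. Values are log2 signals after background correction and quantile normalization, and a difference of 1 on this scale is a doubling. The lung markers Sftpc, Sftpb, Sftpd, Ager and Scgb1a1 were detected on all 42 arrays. Fractionated replicate 13, a female, stood apart. It correlated at 0.864 with the profile of medians over arrays, where the remaining 41 reached 0.960 to 0.991, and it alone held Rag1 at 11.25 and Dntt at 11.76, genes of developing lymphocytes that reached at most 5.18 and 4.99 elsewhere. Among the 28 members tested it lay above all other mice in 5 (Ccl12, Ccl25, Ccl7, Ccl8 and Cxcr4) and below them in 13. Results that rest on the fractionated group are therefore given with and without it. In a whole lobe, fewer cells of a type and less RNA per cell cannot be told apart.

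Of the members, 22 were not tested because they were detected on fewer than 13 arrays. For 16 of these no array was above background: the ligands Ccl1, Ccl20, Ccl22, Ccl26, Ccl28, Cxcl3, Cxcl11 and Xcl1 and the receptors Ccr1, Ccr3, Ccr4, Ccr8, Ccr9, Ccr10, Cxcr6 and Xcr1. The other 6 were above background on a few arrays. Ccl24, an eosinophil attractant, was detected in 4 fractionated mice, 1 acute mouse and 1 control. Cxcl2, a neutrophil attractant, was detected in 3 fractionated mice, 1 acute mouse and 0 controls. Cxcr2, the main neutrophil receptor for such ligands, was detected in 0 fractionated mice, 2 acute mice and 2 controls. Cxcl10, an interferon-induced ligand of Cxcr3, was detected in 1 fractionated mouse, 1 acute mouse and 0 controls. Ccl2, the monocyte attractant, was detected in fractionated replicate 13 alone and its receptor Ccr2 in 1 acute mouse. Cxcl5 is not analysed here.

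In the following, values of a group are its lowest, median and highest log2 signal. Levels of different genes come from different probes and are not set against each other.

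Among the homeostatic ligands, group levels lay close together. Cxcl12, the stromal ligand of Cxcr4, had 11.40, 12.23 and 12.91 in fractionated mice (lowest without replicate 13, 11.74), 11.76, 12.34 and 12.62 in acute mice and 11.51, 12.48 and 12.94 in controls. Cxcl14, made by epithelium and fibroblasts, had 9.56, 11.21 and 12.32 in fractionated mice (lowest without replicate 13, 10.31), 10.63, 11.34 and 12.12 in acute mice and 10.69, 11.44 and 11.96 in controls. Cxcl15, or lungkine, a mouse chemokine of airway and alveolar epithelium, had 13.87, 14.90 and 15.32 in fractionated mice (lowest without replicate 13, 14.08), 14.19, 14.98 and 15.24 in acute mice and 14.26, 14.93 and 15.32 in controls. The 3 groups overlapped in these ligands, and the fractionated low was replicate 13 in each. Cxcl17, a ligand of mucosal epithelium, had 8.47, 10.40 and 11.33 in fractionated mice (lowest without replicate 13, 9.41), 9.51, 10.11 and 10.72 in acute mice and 9.20, 10.15 and 10.78 in controls. Cx3cl1, or fractalkine, which is anchored in the membrane of endothelium and other cells, had 7.58, 9.86 and 10.26 in fractionated mice (lowest without replicate 13, 8.78), 8.81, 9.83 and 10.48 in acute mice and 8.98, 9.69 and 10.40 in controls. These too overlapped, with replicate 13 at the bottom.

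Of the ligands of lymphoid tissue, Cxcl13 spread widely within groups, and Ccl19 and Ccl25 less so. Cxcl13, which brings B cells into follicles through Cxcr5, had 7.02, 7.65 and 9.64 in fractionated mice (highest without replicate 13, 8.38), 6.05, 7.67 and 10.06 in acute mice and 5.62, 7.69 and 9.62 in controls. The spread in controls alone was wider than any difference between group medians. Ccl19, the ligand of Ccr7 in T cell zones, had 5.80, 6.69 and 7.22 in fractionated mice (lowest without replicate 13, 5.90), 5.91, 6.45 and 7.73 in acute mice and 6.22, 6.65 and 7.41 in controls. Ccl25, known from thymus and gut and the ligand of Ccr9, had 5.25, 6.06 and 6.71 in fractionated mice (highest without replicate 13, 6.30), 5.47, 6.06 and 6.46 in acute mice and 5.45, 6.18 and 6.32 in controls. For both, the medians of the groups differed by less than the range within any of them.

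The inflammatory CC ligands included the members with the widest ranges. Ccl3, a macrophage product that acts on Ccr1, had 5.18, 5.80 and 9.48 in fractionated mice, 4.72, 6.23 and 9.69 in acute mice and 4.98, 6.04 and 6.66 in controls. Ccl4, a related macrophage and T cell product, had 5.15, 6.71 and 9.60 in fractionated mice, 5.59, 6.54 and 9.95 in acute mice and 6.05, 6.64 and 7.44 in controls. Acute replicate 9 was the highest mouse for both genes, and the lowest Ccl4 value was in a fractionated mouse. Ccl5, made by T and NK cells, had 7.08, 8.95 and 9.45 in fractionated mice (lowest without replicate 13, 8.20), 8.37, 9.22 and 9.92 in acute mice and 7.99, 8.95 and 9.81 in controls. Ccl6, a myeloid ligand found in rodents, had 7.64, 9.42 and 11.63 in fractionated mice, 7.35, 9.45 and 11.61 in acute mice and 8.05, 9.57 and 10.39 in controls. Ccl9, likewise a myeloid ligand of rodents, had 9.21, 9.997 and 11.25 in fractionated mice, 9.09, 9.79 and 11.28 in acute mice and 8.89, 9.82 and 10.94 in controls. In these the groups overlapped and no control lay above the highest irradiated mouse.

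Ccl7, a monocyte attractant that acts on Ccr2, had 5.22, 5.84 and 7.81 in fractionated mice (highest without replicate 13, 7.55), 5.19, 5.61 and 6.51 in acute mice and 5.12, 5.52 and 5.93 in controls. It was detected in 7 of 14 fractionated mice, 6 of 15 acute mice and 1 of 13 controls, so that controls sat near the detection limit. Ccl8, a related monocyte and T cell attractant, had 4.80, 6.48 and 9.14 in fractionated mice (highest without replicate 13, 8.20), 4.83, 6.04 and 8.32 in acute mice and 4.91, 6.36 and 7.28 in controls. Ccl12, a mouse monocyte chemoattractant of the same cluster on chromosome 11, had 5.98, 6.68 and 8.63 in fractionated mice (highest without replicate 13, 7.48), 5.68, 6.55 and 8.21 in acute mice and 5.92, 6.50 and 7.01 in controls. Replicate 13 was the highest of all mice in these 3 genes, and without it the top value was in a fractionated mouse for Ccl7 and in an acute mouse for Ccl8 and Ccl12. Ccl11, or eotaxin, an eosinophil attractant, had 6.09, 7.97 and 11.22 in fractionated mice (lowest without replicate 13, 6.77), 6.78, 7.79 and 9.02 in acute mice and 6.96, 7.79 and 9.18 in controls. Ccl17, the ligand of Ccr4 made by dendritic cells and macrophages, had 6.44, 7.55 and 10.52 in fractionated mice, 5.79, 7.43 and 10.05 in acute mice and 6.03, 7.48 and 8.48 in controls. Both were highest in fractionated replicate 7, a female, and overlapped between the groups.

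The CXC ligands outside the homeostatic set behaved in the same way. Cxcl1, a neutrophil attractant that acts on Cxcr2, had 6.73, 8.52 and 10.39 in fractionated mice, 7.31, 8.24 and 10.85 in acute mice and 7.24, 8.24 and 9.16 in controls. Cxcl9, an interferon-induced ligand of Cxcr3, had 4.59, 5.60 and 7.14 in fractionated mice (lowest without replicate 13, 4.75), 4.69, 5.93 and 7.61 in acute mice and 4.92, 5.37 and 7.23 in controls. It was detected in 6 of 14 fractionated mice, 9 of 15 acute mice and 3 of 13 controls. Cxcl16, a scavenger receptor and ligand of Cxcr6, had 9.88, 10.62 and 10.95 in fractionated mice (lowest without replicate 13, 10.29), 10.48, 10.66 and 10.89 in acute mice and 10.28, 10.50 and 10.84 in controls. The range of Cxcl16 within a group was narrow, and the groups overlapped in all 3 genes.

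Of the 17 receptors, 7 were tested. Ccr6, found on B cells, T cell subsets and dendritic cells, had 5.43, 7.37 and 8.48 in fractionated mice (lowest without replicate 13, 6.97), 6.98, 7.49 and 8.45 in acute mice and 6.80, 7.67 and 8.32 in controls. Ccr7, which guides naive T cells and mature dendritic cells, had 5.37, 5.97 and 6.56 in fractionated mice, 5.41, 6.05 and 6.42 in acute mice and 5.18, 5.93 and 6.75 in controls. Cxcr3, the receptor of Cxcl9 on activated T and NK cells, had 4.73, 5.66 and 6.43 in fractionated mice (lowest without replicate 13, 5.02), 5.18, 5.91 and 6.55 in acute mice and 5.20, 5.77 and 6.67 in controls. Cxcr3 was detected in 5 of 14 fractionated mice, 11 of 15 acute mice and 10 of 13 controls, yet the ranges overlapped. Cxcr4, the broadly expressed receptor of Cxcl12, had 8.80, 9.27 and 10.94 in fractionated mice (highest without replicate 13, 9.98), 8.97, 9.39 and 10.11 in acute mice and 8.73, 9.25 and 9.86 in controls. Cxcr5, the B cell receptor of Cxcl13, had 5.37, 6.20 and 6.68 in fractionated mice (lowest without replicate 13, 5.42), 5.42, 6.19 and 6.98 in acute mice and 5.42, 6.16 and 7.44 in controls. Cx3cr1, the fractalkine receptor of monocytes and NK cells, had 6.57, 7.49 and 8.04 in fractionated mice, 6.70, 7.65 and 8.17 in acute mice and 6.82, 7.59 and 8.18 in controls. Medians of these receptors differed little between groups beside the spread of the mice. Cxcr1, known as a neutrophil receptor in other mammals and less studied in the mouse, had 6.73, 8.96 and 11.71 in fractionated mice, 7.33, 9.30 and 11.77 in acute mice and 7.30, 9.09 and 10.46 in controls. The highest Cxcr1 values of both irradiated groups lay close together and above the highest control. The lowest value was in a fractionated mouse, the control median lay between those of the irradiated groups, and the ranges overlapped.

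**Figure D1:**
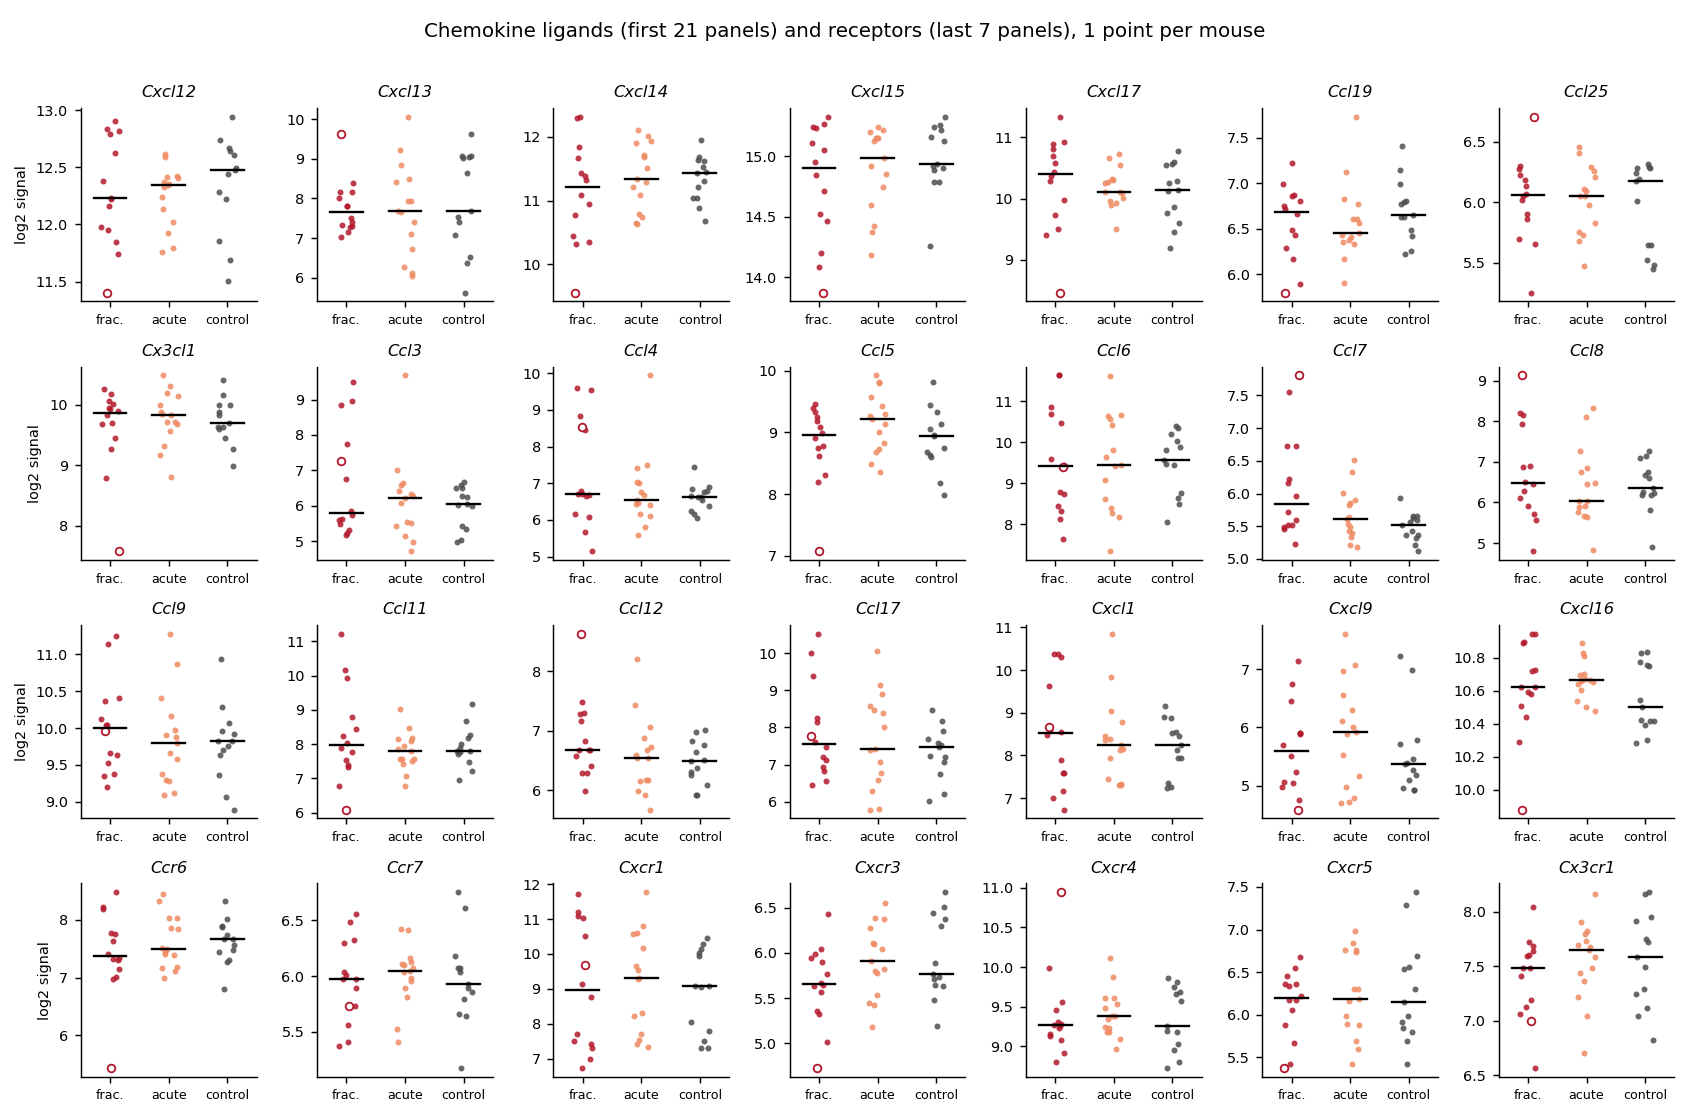
Log2 signal of the 28 tested members in fractionated, acute and control mice, 1 point per mouse, with a bar at the median and fractionated replicate 13 as an open circle. The groups overlap in every panel, and the highest Ccl3, Ccl4 and Ccl7 values are in irradiated mice.

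The fractionated mice were compared with the controls in limma with group and sex as terms. None of the 28 members was called at an adjusted p under 0.05 (0 of 28), and of all 17927 probes tested 0% were called. At an unadjusted p under 0.05, 1 of 28 members (3.57%) passed, against 4.37% of all probes, or 2.1% counting those that were higher. The member was Ccl7, which was 0.62 ± 0.20 (SE) higher in fractionated mice (95% interval 0.22 to 1.02, p = 0.0031, adjusted p = 0.934, limma). Ccl7 passed the detection filter of 13 arrays through irradiated mice (7 fractionated and 6 acute mice, and 1 control). Its p and interval are therefore not free of that selection. Without replicate 13 the difference was 0.50, and within slides it was higher in 5 of 7. Over the other ways of processing the adjusted p of Ccl7 ran from 0.726 to 1.00, none of which passed, and its difference from 0.29 (no background correction) to 0.67 (the authors' value table).

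The next members by p did not pass either threshold. Cxcr3 differed by -0.31 ± 0.16 (p = 0.0574) and by -0.24 without replicate 13. Ccl12 differed by 0.39 ± 0.20 (p = 0.0594) and by 0.27 without that mouse. Ccl4 and Ccl3 had larger but less certain differences. Ccl4 differed by 0.62 ± 0.38 and Ccl3 by 0.66 ± 0.42, with intervals of -0.15 to 1.38 and -0.20 to 1.52. The other 23 members lay between -0.21 (Cxcl15) and 0.50 (Ccl17), and the interval of each held 0. Over the 28 members 16 were higher and 12 lower, with a median of 0.06, beside a median of -0.00 over all probes. Ligands and receptors leaned apart in this comparison. Of the ligands 14 of 21 were higher with a median of 0.07, and of the receptors 2 of 7 were higher with a median of -0.15. Without replicate 13 these were 16 of 21 with a median of 0.15 and 1 of 7 with a median of -0.08. The difference between ligands and receptors was not tested.

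Acute mice were compared with the controls in the same fit. None of the 28 members was called (0 of 28; 0% of all probes), and 0 of 28 had an unadjusted p under 0.05, against 1.41% of all probes. The smallest p belonged to Cxcl16, which differed by 0.11 ± 0.08 (p = 0.159, adjusted p = 1.00, limma). Ccl5 differed by 0.28 ± 0.20 and Cxcl9 by 0.33 ± 0.30. Ccl7, the leading member in the fractionated mice, differed here by 0.19 ± 0.19. Ccl19 differed by -0.13 ± 0.15. The intervals of all 5 included 0, and those of the other 23 did too, with values from -0.18 (Cxcl13) to 0.31 (Ccl17). Of the 28 members 18 were higher and 10 lower, with a median of 0.05 against 0.01 over all probes. The 2 comparisons share their control mice, and their values stand side by side for that reason only.

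The fractionated and acute groups had the same total dose. Again none of the 28 members was called (0 of 28; 0% of all probes), and 1 of 28 had an unadjusted p under 0.05, against 2.08% of all probes. That member was Ccl7, at 0.43 ± 0.19 (p = 0.0298, adjusted p = 1.00, limma) with replicate 13 and 0.31 (p = 0.0785) without it. Within slides Ccl7 was higher in 3 of 7. Ccl5 differed by -0.37 ± 0.19, or -0.23 without replicate 13. Cxcr3 differed by -0.28 ± 0.16 and Ccl12 by 0.28 ± 0.19, or 0.16 for Ccl12 without that mouse. Ccl11 differed by 0.46 ± 0.33 over all mice and by more, 0.63, without it. All 7 receptors had lower means in fractionated mice (median -0.15, and -0.12 without replicate 13), none of them past a threshold. With the slide as a block 6 of 7 were lower, as Cxcr1 was then 0.03 higher. The F test over the 3 groups called 0 of 28 members (0% of all probes), with 1 of 28, Ccl7, at an unadjusted p under 0.05 against 2.06% of all probes.

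**Figure D2:**
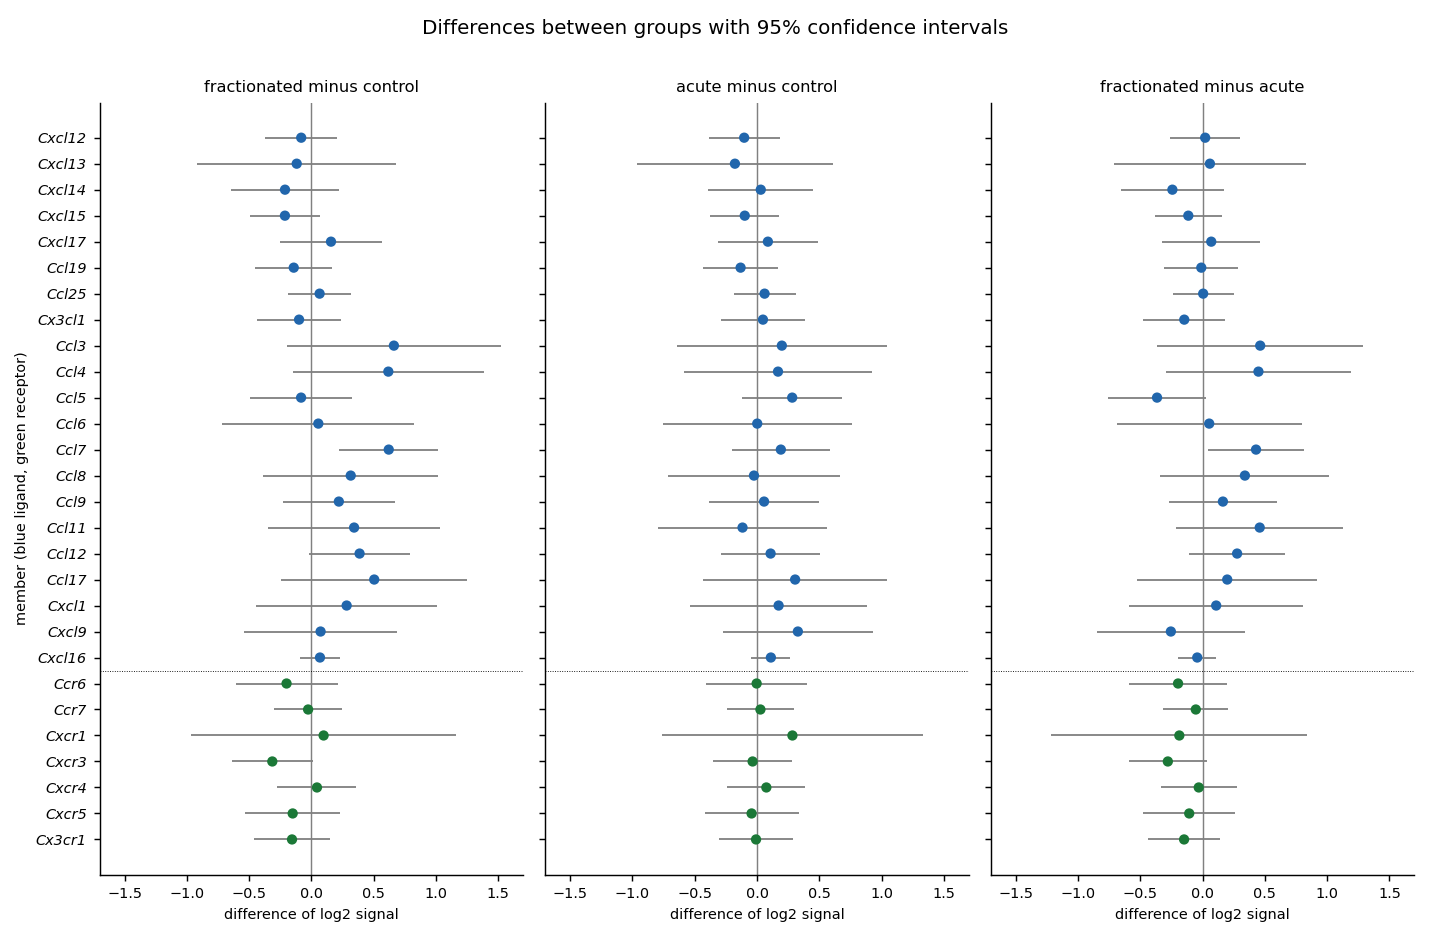
Difference of log2 signal with its 95% confidence interval for each tested member, ligands in blue and receptors in green, in the 3 comparisons between groups. The interval of Ccl7 lies above 0 in fractionated minus control (0.22 to 1.02) and in fractionated minus acute, and every other interval includes 0. Ccl7 passed the detection filter through irradiated mice.

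The precision of these comparisons set what they could show. The half-width of the 95% interval of a member had a median of 0.41 in fractionated against control mice, wider than the 0.25 of all probes. In simulated data with the same groups and independent noise, probes drawn at random from all those tested were changed. At an adjusted p under 0.05 the fit found 48 of 100 changed by 0.5 and 94 of 100 changed by 1.0. In the same run it also called 9 probes that were not changed. Slides and outlying arrays were not simulated. Most members varied more than the median probe, as given below, so these counts do not give the recovery for members. Smaller changes were not simulated.

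Mice of the same group differed far more than the groups did. The standard deviation within groups, over 41 mice without replicate 13, was highest for Cxcr1 (1.51), Ccl3 (1.19) and Ccl17 (1.15). It was lowest for Cxcl16 (0.18), Ccl25 (0.31) and Cxcr4 (0.33). Of the 28 members, 27 had a standard deviation over the 41 mice above the median of all probes tested. The share of variance that lay between groups had a median of 2.38% over members and 2.40% over all probes. The share between slides had a median of 17.3% over members and 34.2% over all probes, and the share between sexes 5.76% and 2.30%. These shares describe the tested members, which passed a detection filter. They were not adjusted for the number of categories, and slides, which are more numerous, take a larger share by chance alone. The shares of slide, group and sex are therefore not set against each other.

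Differences between the sexes were tested in the same fit. Between males and females, 1 of 28 members was called, against 1.77% of all probes, and 5 of 28 (17.9%) had an unadjusted p under 0.05, against 16.8% of all probes. Without replicate 13 that count was 10 of 28 (35.7%, against 17% of all probes), with 1 still called. It was also 10 with array weights (against 21.9% of all probes). The authors' values, where that mouse has no data, gave 10 as well (against 16.9%). With the slide as a block it was 6 (21.4%, against 20.1%), or 7 without replicate 13 (25%, against 22.1%). With arrays centred on their medians it was 4 (14.3%, against 10.6%). No background correction gave 5 (against 16.7%) and no detection filter 6 (against 10.1%). Cx3cl1 had 9.44, 9.97 and 10.48 in males, and 7.58, 9.61 and 10.06 in females. Males lay higher with overlap, and replicate 13 was the lowest female, the next at 8.78. Cx3cl1 was 0.54 ± 0.14 (SE) higher in males (95% interval 0.27 to 0.81, adjusted p = 0.0259, limma), and 0.44 higher without replicate 13 (adjusted p = 0.0137). It was higher in males in 6 of 7 slides. When arrays were centred on their medians in place of quantile normalization the difference was 0.56 with an adjusted p of 0.0634, and over all alternatives the adjusted p ran from 0.0045 to 0.0634.

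Ccl17 ran the other way without passing the threshold. It had 5.79, 6.88 and 10.001 in males, and 7.13, 7.73 and 10.52 in females. All 20 females lay above the male median, and 6 males lay above the female median. The difference was -1.03 ± 0.30 (adjusted p = 0.0594, limma), lower in males in 7 of 7 slides, and it passed with array weights (adjusted p = 0.0070) and in the authors' value table (0.0457). Ccl12 had 5.68, 6.39 and 7.29 in males, and 5.92, 6.79 and 8.63 in females, a difference of -0.48 ± 0.16 (adjusted p = 0.107). A dimmer probe of Ccl12 gave -0.64 with an adjusted p of 0.0417, so its probes lie on either side of the threshold. Both values include replicate 13, the highest female by the brighter probe. By that probe males minus females was -0.72 in fractionated mice (-0.49 without replicate 13), -0.65 in acute mice and -0.01 in controls. Ccl6 had 7.35, 8.71 and 11.63 in males, and 8.43, 9.85 and 11.63 in females, a difference of -0.82 ± 0.31 (adjusted p = 0.150) that passed with array weights (0.0345). Cxcl16 had 10.28, 10.70 and 10.95 in males, and 9.88, 10.57 and 10.90 in females, a difference of 0.16 ± 0.06 (adjusted p = 0.183). The sexes overlapped in all 5 genes. The other 23 members lay between -0.85 (Cxcr1) and 0.25 (Cxcl14, whose dimmer probe gave 0.54 with an adjusted p of 0.0446), each with an interval that held 0. These values include replicate 13, the lowest mouse for Cxcl14 by its brighter probe. Without replicate 13, 5 of these 23 had an unadjusted p under 0.05, none called. They were Ccl25 (0.21), Cxcl12 (-0.25), Cxcl15 (-0.21), Ccr6 (-0.28) and Cxcr3 (-0.26).

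**Figure D3:**
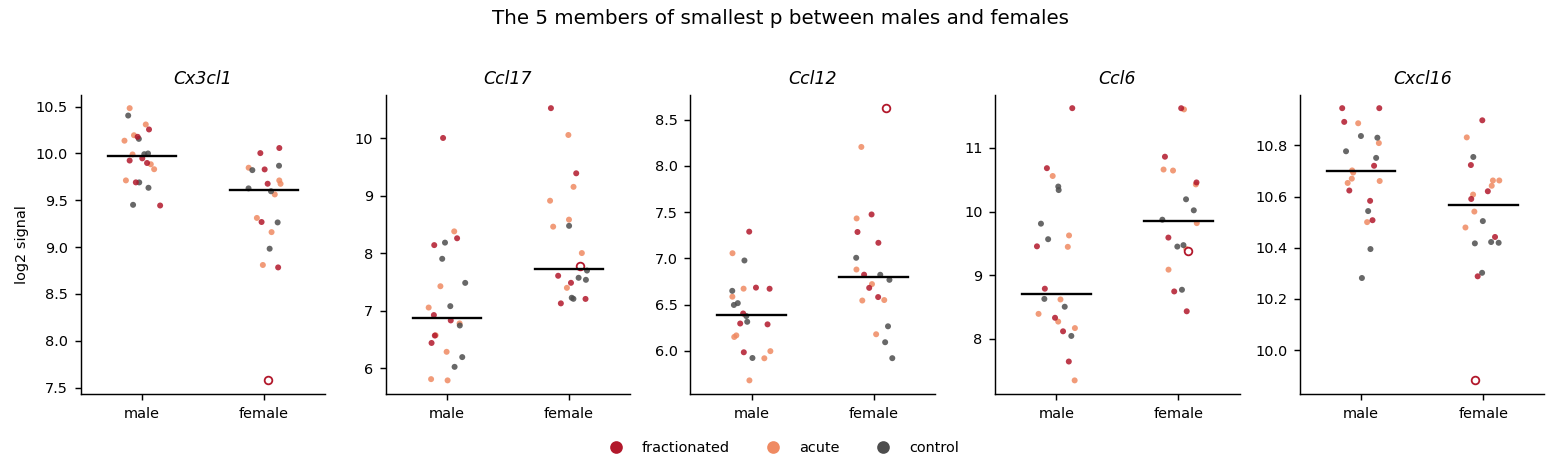
Log2 signal of the 5 members of smallest p between sexes, males at the left and females at the right of each panel, 1 point per mouse coloured by group, with a bar at the median and fractionated replicate 13 as an open circle. Cx3cl1 is higher in males (median 9.97 against 9.61 in females) and Ccl17 lower (6.88 in males, 7.73 in females).

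The differences between sexes were looked at in each group. For Cx3cl1, males minus females was 0.59 in fractionated mice, 0.63 in acute mice and 0.38 in controls, and without replicate 13 it was 0.30 in fractionated mice, below the value in controls. For Ccl17 it was -0.56 in fractionated mice (-0.63 without replicate 13), -1.89 in acute mice and -0.53 in controls. The interaction of sex with acute irradiation was -1.36 ± 0.71 for Ccl17 (p = 0.0623, adjusted p = 1.00, limma) and did not pass. For the interaction with fractionated irradiation 0 of 28 members were called (0% of all probes) and 1 of 28, Ccl25, had an unadjusted p under 0.05, against 2.57% of all probes (1.2% with that sign, negative). Replicate 13 was the highest mouse for Ccl25. Males minus females for Ccl25 was -0.07 in fractionated mice, or 0.03 without replicate 13, and 0.46 in controls. For the interaction with acute irradiation 0 of 28 were called (0% of all probes), and 0 of 28 passed unadjusted, against 2.06% (1.08% positive).

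Several cell type lists also differed between the sexes in their markers' values. The endothelial list (4 of 5 markers tested, with Kdr detected on 0 arrays) had scores of -1.02, 0.23 and 0.56 in males and -1.09, -0.01 and 0.55 in females, as lowest, median and highest without replicate 13. The T and NK cell list (6 of 10 tested) had scores of -0.59, -0.17 and 0.55 in males and -0.20, 0.13 and 0.49 in females. A score is the mean deviation of a list's genes from their average over the arrays, in log2 units. All 4 endothelial markers had higher means in males and 5 of the 6 T and NK cell markers lower ones, none called, although 4 of those 5 had an unadjusted p under 0.05 (7.90% of all probes were lower at that threshold). Of the 6 monocyte and macrophage markers tested 3 were lower in males and 1 higher at that threshold, with a list median of -0.26. Of the 2 dendritic cell markers tested, from 6 listed, 1 was lower at that threshold and the other had a higher mean. The list median was -0.22. These marker counts and list medians include replicate 13, a female, and are not given without that mouse. Its T and NK cell score of 1.53 was above that of every other mouse, and its endothelial score of -1.89 was below. Both lean the way of the reported differences. Its dendritic cell score of -0.84, also below that of every other mouse, leans the other way. The part of these cell types in the differences of Cx3cl1, Ccl17, Ccl6 and Ccl12 was not tested.

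Cx3cl1 and Ccl17, which had opposite signs between the sexes, are neighbours on chromosome 8, where Ccl22, Cx3cl1 and Ccl17 follow each other among protein-coding genes. Of the 50 members 37 had a promoter in the RefSeq table of GRCm38.p6 used here, each a window of 250 bases before to 50 bases after the start of the gene. The windows of these neighbours are shown because the pair gave the largest differences between sexes relative to error, Cx3cl1 at chr8:94771930-94772229 and Ccl17 at chr8:94810203-94810502, both on the plus strand and written 5′ to 3′. Capitals mark the motif TATAAA, searched on the plus strand and present in 8.32% of all 32851 windows.
Cx3cl1: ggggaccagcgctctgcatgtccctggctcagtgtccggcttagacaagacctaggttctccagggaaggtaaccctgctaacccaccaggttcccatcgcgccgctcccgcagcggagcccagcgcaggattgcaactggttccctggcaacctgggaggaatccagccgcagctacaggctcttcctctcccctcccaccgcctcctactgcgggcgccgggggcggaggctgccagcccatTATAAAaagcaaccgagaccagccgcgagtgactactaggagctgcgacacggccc
Ccl17: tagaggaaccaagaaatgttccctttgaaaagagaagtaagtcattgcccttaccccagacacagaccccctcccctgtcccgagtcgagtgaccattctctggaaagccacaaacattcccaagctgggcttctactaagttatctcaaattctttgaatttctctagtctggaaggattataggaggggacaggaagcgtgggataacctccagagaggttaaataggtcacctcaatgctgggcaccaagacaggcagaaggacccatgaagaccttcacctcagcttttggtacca
In Cx3cl1 the motif begins 6 bases before the annotated start. The letters TATAAA are not in the Ccl17 window. Over the members with a window, 10 of 37 held TATAAA.

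The members did not vary independently over mice. Pearson correlations were computed for all 378 pairs of the 28 tested members over 41 mice, without replicate 13, with two-sided permutation tests of 100000 draws adjusted over the 378 pairs. At an adjusted p under 0.05, 133 pairs passed (103 positive and 30 negative), and 88 of these also passed by rank and kept their sign in deviations from slide means. Pairs share arrays and processing, and mice of one cage or litter may be more alike, which the labels do not give.

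The highest correlation joined Ccl6 and Cxcr1 (r = 0.95, rho = 0.94). Cxcl1 followed both, with r = 0.91 (rho = 0.91) for Cxcr1 and r = 0.90 (rho = 0.89) for Ccl6. Ccl17 had r = 0.87 (rho = 0.83) with Ccl6 and 0.85 (rho = 0.77) with Cxcl1. Cxcl15, the epithelial ligand, had r = 0.81 (rho = 0.79) with Ccl6. Each of these 6 pairs had a permutation p of 1e-05 for r and for rho, the smallest the draws can give, and adjusted p of 0.00013 for r and 0.000222 for rho. Without the 2 mice farthest from the median of the first gene, r lay between 0.80 for Ccl6 with Cxcl15 and 0.95 for Ccl6 with Cxcr1. The relation of Ccl6 and Cxcr1 was as close in each of the 5 slides that hold 6 arrays (r from 0.96 to 0.98). In deviations from sex means r was 0.95. These pairs were named after their values were seen.

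Cx3cl1 was lower in mice with higher levels of this set. Its r was -0.68 with Ccl6 (rho = -0.61, adjusted p = 0.00013) and -0.66 with Ccl17 (rho = -0.61, adjusted p = 0.000216). Without the 2 farthest mice these were -0.63 and -0.52. In deviations from sex means they were -0.60 and -0.55. They were positive within 1 of the 5 slides of 6 arrays, with r from -0.90 to 0.41 for Ccl6 and -0.91 to 0.30 for Ccl17. A second group of members joined receptors of lymphocytes: Ccr6 and Cxcr3 had r = 0.65 (rho = 0.67, p = 3e-05, adjusted p = 0.000298), positive within all 5 slides.

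**Figure D4:**
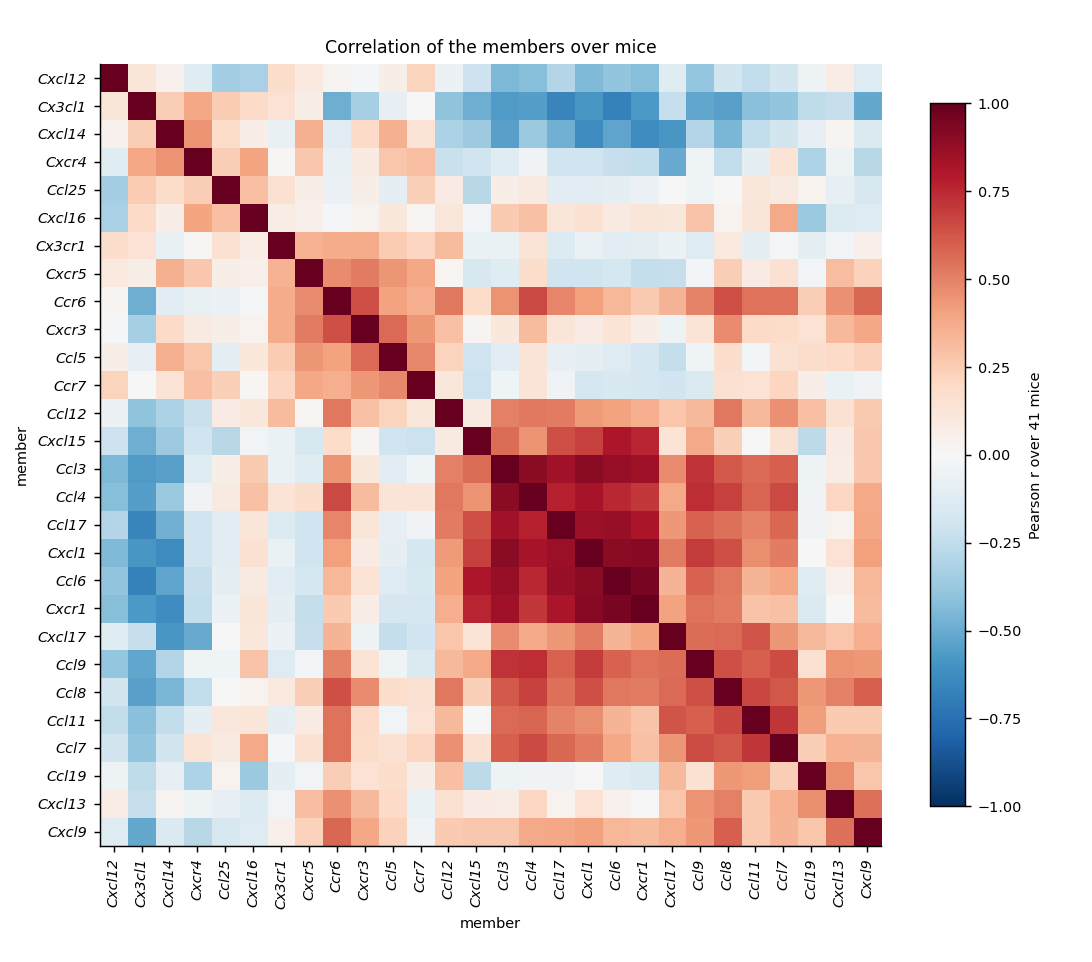
Pearson r between the 28 tested members over 41 mice, ordered by average linkage on 1 minus r. Ccl17, Cxcl1, Ccl6 and Cxcr1 form a block with Cxcl15, Ccl3 and Ccl4, the last pair including the 5 mice set apart by a gap, and Cx3cl1 is negative with that block (-0.68 with Ccl6).

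For Ccl3 and Ccl4 the mice fell into separate clusters, so r is given within the larger one. A gap of 0.96 in Ccl4 set 5 mice apart from the other 36, which reached at most 7.50. They were fractionated replicates 3 (8.83), 4 (9.53), 7 (9.60) and 10 (8.46) and acute replicate 9 (9.95), with 0 controls among them. The same 5 mice held the top Ccl3 values, from 7.74 to 9.69, where the 36 others reached at most 6.999. They also held the top Cxcr1 values (11.03 to 11.77, others at most 10.79) and the top Ccl6 values (10.68 to 11.63, others at most 10.66). They were not set apart in Cxcl1, Ccl17, Ccl7 or Ccl12. Fractionated replicate 10 had 9.62 for Cxcl1 where the other 36 reached 9.83, and 8.14 for Ccl17 where they reached 9.15. In Ccl12 another mouse was highest, at 8.21. The 4 arrays on which Cxcl2 was detected all belonged to these 5 mice. The mice were picked by these values, came from 4 slides, and comprised 2 males and 3 females, and no test was made of how they fell among the groups. Replicate 13, left out here, had 8.52 for Ccl4 and 7.26 for Ccl3. Among the 36 mice below the gap Ccl3 and Ccl4 had r = 0.58 (rho = 0.59, permutation p = 0.00018, adjusted p = 0.0031). In those 36 mice the pair of Ccl6 and Cxcr1 had r = 0.93, and 62 of the 378 pairs passed, a setting chosen after seeing the data.

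Promoters of the set are shown for Cxcl1 (chr5:90890995-90891294, plus strand), Ccl6 (chr11:83593038-83593337, minus strand) and Cxcr1 (chr1:74194582-74194881, minus strand), the triplet of highest mutual correlation, from the RefSeq table of GRCm38.p6 and written 5′ to 3′ on the strand of the gene. Capitals mark matches to GGG, any pair of bases and TTTCC, a form of the site bound by NF-kB, the factor known to switch on inflammatory chemokines, searched on both strands and present in 1.63% of all 32851 windows.
Cxcl1: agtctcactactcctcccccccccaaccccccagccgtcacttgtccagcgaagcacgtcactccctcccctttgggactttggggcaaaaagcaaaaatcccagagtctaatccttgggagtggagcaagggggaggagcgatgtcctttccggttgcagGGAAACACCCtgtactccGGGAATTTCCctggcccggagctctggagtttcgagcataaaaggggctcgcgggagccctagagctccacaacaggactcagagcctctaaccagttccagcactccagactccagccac
Ccl6: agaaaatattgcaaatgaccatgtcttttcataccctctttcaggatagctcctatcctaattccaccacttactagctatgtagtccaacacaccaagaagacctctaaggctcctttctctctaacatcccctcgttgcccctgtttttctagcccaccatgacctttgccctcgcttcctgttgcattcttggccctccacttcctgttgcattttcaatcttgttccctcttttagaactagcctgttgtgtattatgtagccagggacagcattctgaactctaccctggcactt
Cxcr1: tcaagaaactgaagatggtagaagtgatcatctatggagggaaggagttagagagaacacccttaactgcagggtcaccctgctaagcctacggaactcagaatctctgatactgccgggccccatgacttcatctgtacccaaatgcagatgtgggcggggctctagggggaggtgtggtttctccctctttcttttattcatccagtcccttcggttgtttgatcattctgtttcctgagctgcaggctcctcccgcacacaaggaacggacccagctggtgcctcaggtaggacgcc
The Cxcl1 window holds 2 matches that do not overlap, which begin 89 bases before the start on the minus strand and 71 bases before it on the plus strand. These letters are not in the windows of Ccl6 and Cxcr1. Over the members with a window 6 of 37 held a match, in Ccl9, Ccl20, Ccr3, Cxcl1, Cxcl2 and Cxcl3. The other motifs searched on both strands were TGANTCA, a form of the AP-1 site (7.81% of all windows and 6 of 37 members), and TTTC, any pair of bases and TTTC, a form of the interferon-stimulated element (3.44% of all windows and 3 of 37 members).

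Marker lists of the cells that a lobe holds were set beside the members over the same 41 mice, in 280 relations of 28 members with 10 lists. By r and by rho 85 relations passed at an adjusted p under 0.05. Cxcr1 followed the alveolar macrophage list (r = 0.83, rho = 0.82, permutation p = 1e-05 for each, adjusted p = 7.78e-05), with r = 0.79 without the 2 farthest mice and 0.84 in deviations from slide means. That list rested on 3 of its 8 markers, Chi3l3, Marco and Abcg1. Fabp1 and Atp6v0d2 were detected on 0 arrays, Itgax on 7, and Ear1 and Siglec5 are not analysed here. Cxcl1 (r = 0.88) and Ccl6 (r = 0.85) followed the same list. Against the neutrophil list (5 of 6 markers tested) Cxcr1 had r = 0.06 (rho = 0.01, permutation p = 0.695 for r, adjusted p = 0.776), positive within 2 of 5 slides, and 0 of 28 members passed with that list. Cxcr1 ran against the endothelial list (r = -0.85, rho = -0.88, permutation p = 1e-05, adjusted p = 7.78e-05), negative within all 5 slides of 6 arrays.

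The scores of the lists that go with these members were set out by group. The alveolar macrophage score was -0.83, -0.20 and 1.35 in fractionated mice, -0.66, -0.05 and 1.03 in acute mice and -0.75, -0.10 and 0.60 in controls, as lowest, median and highest without replicate 13. The endothelial score was -1.02, 0.24 and 0.42 in fractionated mice, -1.09, 0.16 and 0.56 in acute mice and -0.26, 0.18 and 0.55 in controls. The highest and the lowest macrophage score were both in fractionated mice, and the highest and the lowest endothelial score both in acute mice. For both lists the control median lay between the medians of the irradiated groups. The B cell score, from 3 of 8 markers, was -0.53, -0.25 and 0.95 in fractionated mice, -0.58, -0.02 and 0.92 in acute mice and -0.83, 0.10 and 1.15 in controls. Of its markers, 2 of 3 (Cd79b and Blk) were lower in fractionated than in control mice at an unadjusted p under 0.05, against 2.28% of all probes. That count includes replicate 13, whose B cell score of -1.06 was below that of every other mouse, and it is not given without that mouse. None of the markers was called in a comparison of groups. The part of cell numbers in the members' levels was not tested.

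Other members went with other lists. Cx3cl1 followed the endothelial list (r = 0.65, rho = 0.57, permutation p = 2e-05, adjusted p = 0.00014), with r = 0.50 without the 2 farthest mice and positive values within all 5 slides. Ccr6 followed the T and NK cell list (r = 0.78, rho = 0.81) and the B cell list (r = 0.78, rho = 0.73). Cxcr3 had r = 0.71 with the T and NK cell list and 0.67 with the B cell list. Cxcr5 had r = 0.65 with the B cell list, of which 3 of 8 markers were tested, positive within 4 of 5 slides. Ccl5 had r = 0.73 with the T and NK cell list. Cxcl15 followed the lung epithelium list (r = 0.81, rho = 0.74), on which all 6 markers were tested. The adjusted p of these relations of Ccr6, Cxcr3, Cxcr5, Ccl5 and Cxcl15 was 7.78e-05.

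**Figure D5:**
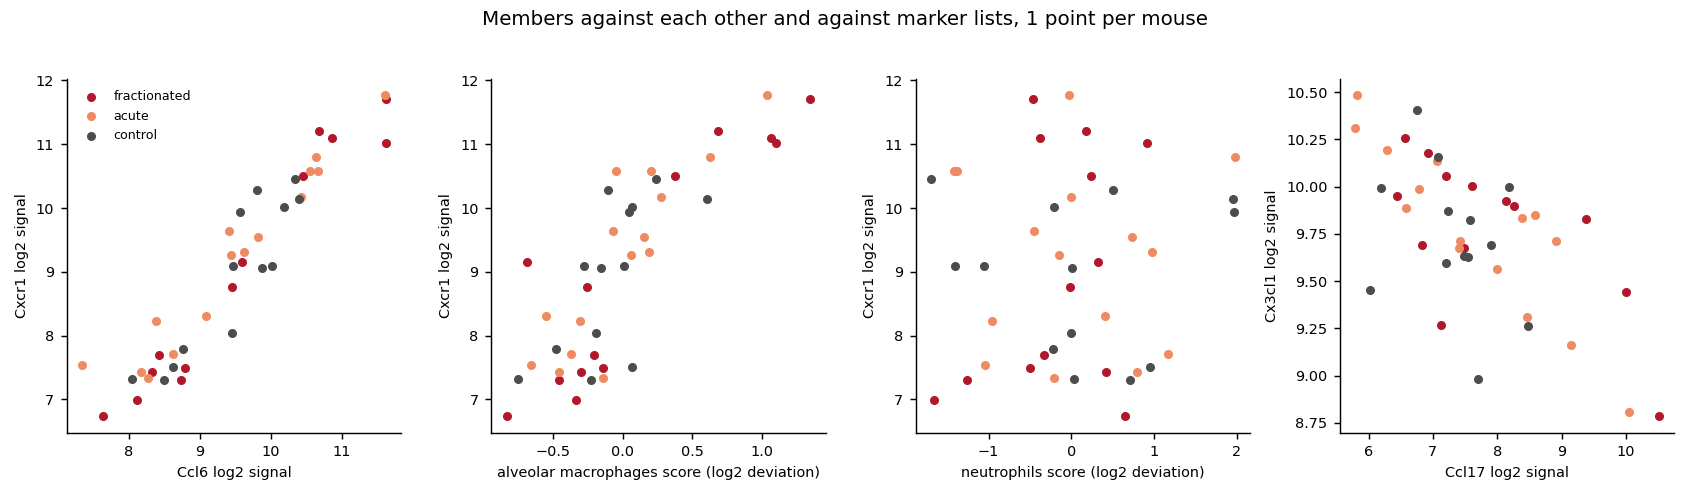
Log2 signal of Cxcr1 against Ccl6, against the alveolar macrophage score and against the neutrophil score, and of Cx3cl1 against Ccl17, 1 point per mouse coloured by group, 41 mice. Cxcr1 follows Ccl6 (r = 0.95) and the macrophage score (0.83) but not the neutrophil score (0.06), and Cx3cl1 falls as Ccl17 increases (-0.66).

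Known pairs of ligand and receptor were then compared over the 41 mice. Of 28 pairs listed, 6 had both probes tested, and p-values were adjusted over the 6. Cxcl9 and Cxcr3 had r = 0.38 (rho = 0.39, permutation p = 0.0132, adjusted p = 0.0794) and r = 0.35 without the 2 farthest mice, positive within 4 of 5 slides. Cxcl13 and Cxcr5 had r = 0.31 (rho = 0.30, permutation p = 0.0487, adjusted p = 0.146). Ccl21a and Ccr7 had r = 0.28 (rho = 0.27, adjusted p = 0.150). Ccl21a has near-identical copies, so its reading is uncertain. Cx3cl1 and Cx3cr1 had r = 0.14, Ccl19 and Ccr7 0.07, and Cxcl12 and Cxcr4 -0.12. None of the 6 passed, and the pair of Cxcl12 and Cxcr4 changed sign with the processing (0.16 in deviations from slide means and 0.32 with arrays centred on their medians). With that centring Cxcl9 with Cxcr3, Cxcl13 with Cxcr5 and Ccl21a with Ccr7 passed, at r of 0.48, 0.44 and 0.41.

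Genes of the chemokine system outside the naming rule were taken from a list of 50, of which 45 had a probe and 35 were tested. They comprise atypical receptors, chemokines with other names, the protease Dpp4, signalling of the receptors and inducers. Of these 0 of 35 were called in each of the 3 comparisons between groups. At an unadjusted p under 0.05, 1 of 35 (Gnb1, a G protein subunit) was lower in fractionated than in control mice, against 2.28% of all probes. For acute against control mice it was 0 of 35. For fractionated against acute mice 1 of 35 (Ccl27a, a skin chemokine) was lower, against 1.12% of all probes. Ccl27a differed there by -0.25 ± 0.12, and by -0.16 ± 0.10 (p = 0.117) without replicate 13, which left 0 of 35. Ackr2, a scavenging receptor of inflammatory CC chemokines, averaged 10.59 ± 0.71 in fractionated mice, 10.58 ± 0.52 in acute mice and 10.88 ± 0.26 in controls (SD), a difference from controls of -0.28 ± 0.19 for fractionated and -0.30 ± 0.19 for acute mice (SE). Without replicate 13, in which Ackr2 was lower than in any other mouse, the value for fractionated mice was -0.17 ± 0.17. None of these passed a threshold.

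Between the sexes 1 of 35 was called, higher in males. It was Ppbp, a platelet chemokine that yields neutrophil-activating peptides, with 6.53, 8.16 and 12.10 in males and 4.92, 6.78 and 9.40 in females (lowest without replicate 13, 5.82). The sexes overlapped, with most males above the female median. Ppbp was 1.44 ± 0.29 higher in males (adjusted p = 0.00447, limma), in 7 of 7 slides, and 1.36 ± 0.29 higher without replicate 13 (adjusted p = 0.00598). Pf4, the other platelet chemokine on the list, differed by 0.31 ± 0.17 (adjusted p = 0.347). Of the 35 genes, 4 were higher in males at an unadjusted p under 0.05, Ppbp included (8.93% of all probes; 3 without replicate 13), and 6 were lower (7.90% of all probes), none of the others called.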

How the data were processed

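The deposited table gave, per the file headers, the average signal intensity of each probe on 42 Illumina arrays, without normalization, and its detection p-value. The authors' value table was log2 on the evidence of its match to those signals, with 41 filled columns of median 3.96 and 1 empty one (fractionated replicate 13), and served as an alternative. How its centring was done, and the software and versions the authors used, are not given in the sources used here. Intensities were background-corrected from the detection p-values, quantile normalized and log2 transformed with neqc (offset 16) in limma 3.58.1 under R 4.3.3. Probes with a detection p under 0.01 on at least 13 arrays (17927) entered a limma fit with group and sex, a trended prior variance and Benjamini-Hochberg adjustment, checked on simulated data. The number of arrays limits the precision. Of the probes 34885 carried 1 gene symbol, 18 several and 10378 none.

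Groups came from the labels. Whether mice of a group shared a litter or cage is not stated. The 5 members of smallest p in each comparison were described with full statistics. Relations over mice used two-sided permutation tests (100000 draws) with Benjamini-Hochberg adjustment within each family. The alternatives were no replicate 13, the slide as a block (slides hold up to 6 arrays), array weights, no sex term, median scaling, no background correction, the authors' value table, no detection filter and the next probe of a gene. Members, lists and tests were chosen with earlier results of these data known.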

Additional observations from a re-analysis of the deposited data

How the results depend on the processing

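No probe and no member passed at an adjusted p under 0.05 in the comparisons of fractionated, acute and control mice under any alternative run. Between sexes the count depended on the processing. It was 318 probes, and 538 with the slide as a block, 867 with that block and without fractionated replicate 13, 1165 with array weights, 76 with arrays centred on their medians and 186 with no detection filter. Of 28 members 1 (Cx3cl1) was called, against 318 of 17927 probes. It was 3 members with array weights, against 1165 of those probes, and 0 with median centring, against 76. In the authors' value table it was 2 members, against 399 probes. Median centring moved the median of all probes to 0.11 for acute minus control mice, where 25 of 28 members were then higher with a median of 0.16. Of the ligand and receptor pairs, Cxcl13 with Cxcr5 (r = 0.44), Ccl21a with Ccr7 (0.41) and Cxcl9 with Cxcr3 (0.48) passed with median centring, and Cxcl9 with Cxcr3 also with all 42 arrays (0.43). Cxcl12 with Cxcr4 turned positive in deviations from slide means (0.16) and with median centring (0.32). The cause was not tested. For the pairs of members, chosen with their settings after seeing the data, 133 passed, against 62 in the 36 mice below the gap in Ccl4, 122 with all 42 arrays and 152 with median centring. No paired analysis was possible because the labels give no replicate numbers shared between groups. Ccl7 was detected on 14 of 42 arrays, so most of its values lie near background.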
